A study of Mus musculus with 82 samples.

Results

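Megakaryocyte-erythroid progenitors (MEP) and granulocyte-monocyte progenitors (GMP), sorted from the bone marrow of young mice, were compared gene by gene through mRNA-seq. The comparison used the 2 young MEP and the 2 young GMP libraries, which are all the RNA-seq libraries of these cell types among the 82 samples of the series. The study followed chromatin and transcription in hematopoietic stem cells (HSCs) of young and old mice, with a shorter transcript of Btaf1 as a candidate driver of aging, and profiled young progenitors beside them. The 2 libraries of common myeloid progenitors (CMP), placed before GMP and MEP in the usual scheme, are given side by side and enter a fit only as an alternative.

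Both groups were labelled WT, carried the same batch label and had no treatment in their labels. Per the methods, the young mice were C57BL/6J males 3 to 4 months old. What limits the groups as a model is that the sources used here give neither the gates that sorted MEP, GMP and CMP nor whether the libraries of a cell type came from separate or pooled mice. The p-values therefore measure the spread between these libraries, which may be technical. In sorted bulk RNA, fewer cells that express a gene and less RNA per cell cannot be told apart.

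As background, MEP give rise to red cells and platelets, and GMP to neutrophils, monocytes and related cells. GATA1 with its cofactor FOG1 and KLF1 drive the erythroid program, in which the cells build a spectrin membrane skeleton, haem and globin. PU.1 and C/EBP factors drive the granulocyte and monocyte program, which begins with the proteases and the peroxidase of the azurophil granules, and GATA1 and PU.1 are known to oppose each other.

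The labels were first checked against 5 markers. Levels are CPM, the share of a library's counts scaled to a fixed total after TMM normalization, and positions are on mm10. MEP and GMP levels come from a normalization of these libraries alone. CMP levels come from a separate one with all progenitor libraries, over the genes tested in MEP and GMP, brought to the same scale. Klf1, the erythroid Krüppel-like factor (chr8:84901928-84905291, plus strand), stood at 0.971 and 2.69 CPM in the GMP libraries and 778 and 760.3 CPM in the MEP libraries. Car1, carbonic anhydrase 1 (chr3:14766216-14808368, minus strand), had 4.30 and 4.83 CPM in GMP and 4615 and 5069 CPM in MEP. Both markers were high in the 2 MEP libraries and low in the 2 GMP libraries, with no overlap. The myeloperoxidase gene Mpo (chr11:87793581-87804413, plus strand) stood at 46898 and 46481 CPM in GMP and at 26.1 and 11.3 CPM in MEP. Elane, neutrophil elastase (chr10:79886247-79888215, plus strand), gave 7492 and 7061 CPM in GMP and 7.33 and 1.09 CPM in MEP. Ctsg, cathepsin G (chr14:56099881-56102574, minus strand), gave 2023 and 1937 CPM in GMP and 1.08 and 0.599 CPM in MEP. All 3 granule genes were high in both GMP libraries and low in both MEP libraries, so the 5 markers followed the labels. Mpo and Elane were higher in MEP replicate 1 than in replicate 2.

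Genes of the surface proteins by which these progenitors are usually sorted separated the groups too. Cd34, the progenitor antigen CD34, stood at 562 and 595 CPM in GMP and 0.919 and 1.09 CPM in MEP. Fcgr3, which encodes the CD16 Fc receptor, stood at 351 and 339 CPM in GMP and 0.162 and 0.326 CPM in MEP, and Fcgr2b, the CD32 Fc receptor, at 112 and 106 CPM in GMP and 0.162 and 0.0544 CPM in MEP. Kit, the stem cell factor receptor that both cell types carry, overlapped between the groups, at 552 and 614 CPM in GMP and 509 and 560.4 CPM in MEP. Its log2 fold change was -0.12 (SE 0.0602, edgeR adjusted p = 0.0929). Of 10 tested genes on the list of gate genes, 7 were called higher in GMP, against 27.6% of all tested genes, and 2 in MEP, near the background of 17.3% (call rule below), the latter being Eng, endoglin, at 25.1 and 24.4 CPM in GMP against 109 and 103 CPM in MEP, and Slamf1, CD150, at 0 and 0.188 CPM in GMP against 0.811 and 0.435 CPM in MEP. Slamf1 lost its call without GMP replicate 1 or MEP replicate 1, in DESeq2 and with the replicate block, with adjusted p from 0.0528 to 0.161. Because the gates may select on such genes, their differences are a check and not a finding.

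**Figure D1:**
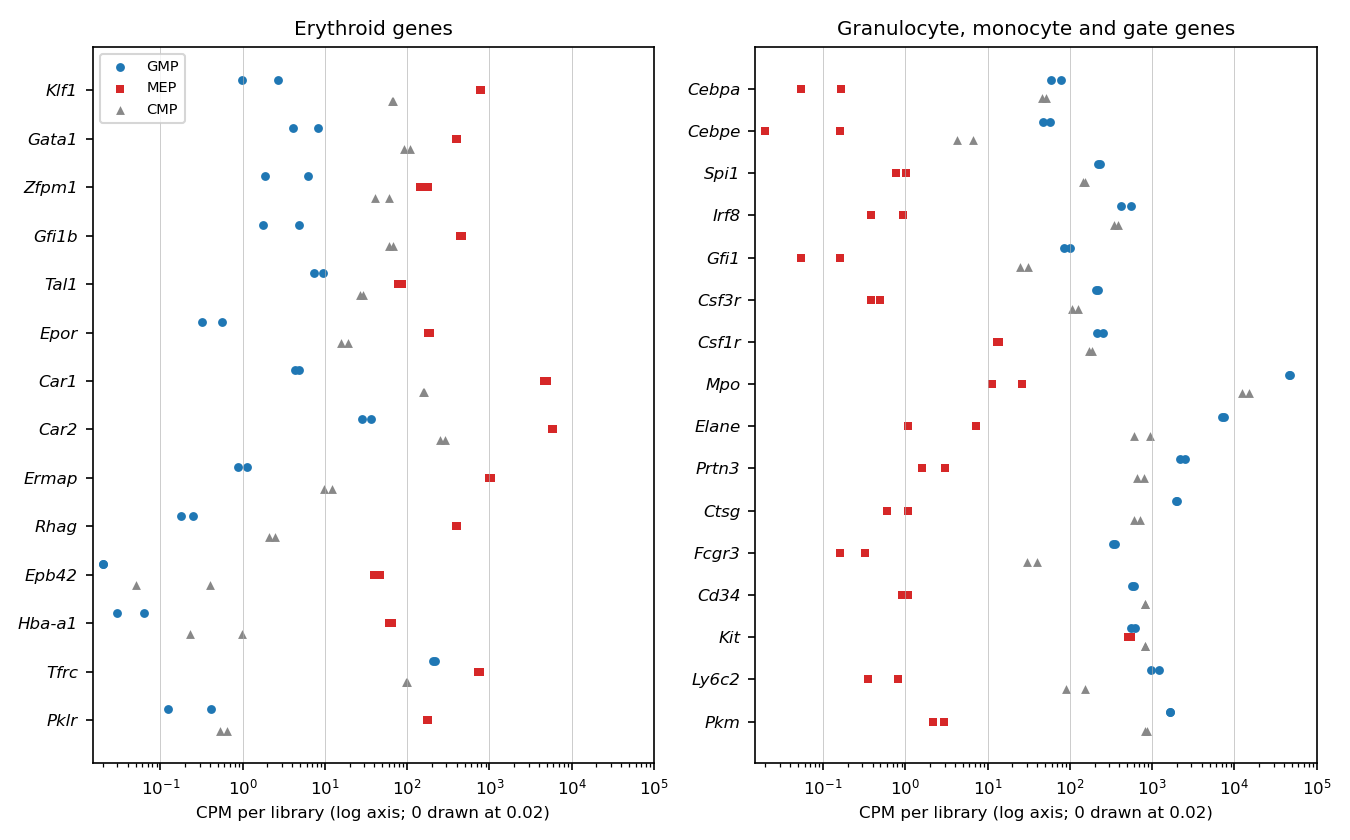
CPM of 30 genes in each library on a log axis, for GMP (circles), MEP (squares) and CMP (triangles). The 2 replicates of a cell type lie close together for most genes, erythroid genes lie right in MEP, and of the granulocyte, monocyte and gate genes only Kit overlaps between MEP and GMP.

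Across the transcriptome, 17147 genes entered the quasi-likelihood test of edgeR. A gene was called when its fold change exceeded 1.5 and its Benjamini-Hochberg adjusted p lay below 0.05. Of these, 2963 (17.3%) were higher in MEP and 4726 (27.6%) were higher in GMP, 44.8% in either direction, and each count of called list members below stands against these shares. The called genes included 628 over 8-fold higher in MEP and 1912 over 8-fold higher in GMP. Counts were 0 in both GMP libraries for 170 tested genes and 0 in both MEP libraries for 435. The median log2 fold change over all tested genes was -0.03, and the libraries of the 2 cell types did not overlap for 81.9% of them. In all statements below, a positive log2 fold change means higher in MEP, a standard error (SE) is given where both groups had counts, and where a group held 0 counts the fold is a lower bound set at 3 counts over the group.

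Libraries held 33177394 to 36510850 counts. Log2 CPM correlated at r = 0.996 between the GMP libraries and 0.997 between the MEP libraries across genes, and at 0.849 to 0.854 between the cell types. The 10 most counted genes took 8.60% and 8.44% of the counts in GMP and 3.18% and 3.23% in MEP, Mpo alone 4.49% and 4.47% in GMP. Mitochondrial transcripts took 0.567% to 0.657% of the counts in the 4 libraries.

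**Figure D2:**
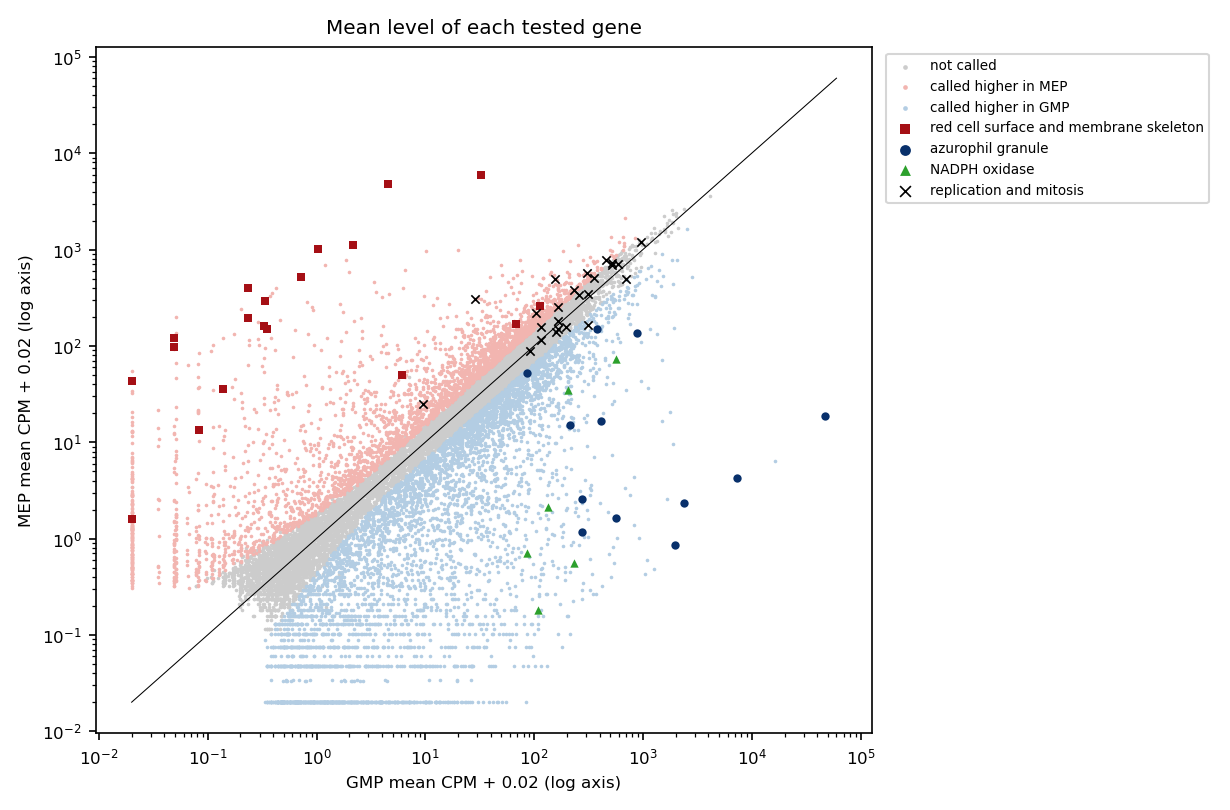
Mean CPM of each tested gene in MEP (vertical, log axis) against GMP (horizontal, log axis), each raised by 0.02 so that 0 can be drawn, with 4 gene lists marked. Red cell surface genes lie above the line of equal levels, and azurophil granule and NADPH oxidase genes lie below it. Replication genes lie nearer the line, most of them above it.

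Transcription factors of the erythroid and megakaryocyte program were mostly higher in MEP, with 8 of 14 called there, 2 called in GMP and a median log2 fold change of 1.70. Klf1 was 419.7 times higher in MEP (log2 fold change 8.73, SE 0.308, edgeR adjusted p = 0.000325). Gata1, which encodes the master factor of red cells and platelets, stood at 4.12 and 8.27 CPM in GMP and 409 and 388 CPM in MEP, a log2 fold change of 6.02 (SE 0.335). Gfi1b, a repressor needed in both lineages, stood at 1.77 and 4.89 CPM in GMP and 444 and 469 CPM in MEP (log2 fold change 7.12, SE 0.414). Zfpm1, the gene of the GATA1 cofactor FOG1, stood at 1.88 and 6.27 CPM in GMP and 179.8 and 142 CPM in MEP (log2 fold change 5.32, SE 0.603). For these 4 genes both MEP libraries lay far above both GMP libraries, and GMP replicate 2 was the higher of the GMP pair each time. The edgeR adjusted p was 0.00213 for Gata1, 0.00319 for Gfi1b and 0.0151 for Zfpm1. Without GMP replicate 2 the log2 fold changes were 9.63 for Klf1, 8.02 for Gfi1b and 6.41 for Zfpm1, which was at 4.67 without GMP replicate 1. Without either MEP library these 3 calls of Gata1, Gfi1b and Zfpm1 were lost, at adjusted p from 0.0549 to 0.126, with log2 fold changes of 5.13 to 7.15, and 5 genes of the list remained called higher in MEP. Zfpm1 also lost its call with the replicate block, at an adjusted p of 0.0675.

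Other members of the GATA1 complex differed less. Tal1, the bHLH factor SCL, was 9.76 times higher in MEP (log2 fold change 3.29, SE 0.124), at 7.27 and 9.59 CPM in GMP and 87.3 and 77.2 CPM in MEP. Klf3, which binds the same CACCC boxes as KLF1 but represses, and Bcl11a, a repressor of fetal globin, were 6.05 and 5.42 times higher in MEP, with Zbtb7a, another repressor of fetal globin, 1.96 times higher. The bridging factors Lmo2 and Ldb1 were not called, at log2 fold changes of -0.24 and 0.11. Against the direction of the list, Fli1, the ETS factor of megakaryocytes, stood at 144 and 149 CPM in GMP and 4.76 and 3.92 CPM in MEP (log2 fold change -5.07, SE 0.0977, edgeR adjusted p = 1.53e-15), and Nfe2, a factor of late megakaryocytes and erythroid cells, was 2.25 times higher in GMP. Gata2, the GATA factor of stem cells, mast cells and early progenitors, was not called. Its levels overlapped at 30.6 and 60.2 CPM in GMP and 37.4 and 46.5 CPM in MEP, against 329 and 396 CPM in CMP.

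Myeloid factors leaned the other way, with 11 of 12 called higher in GMP and a median log2 fold change of -7.69, or -5.51 with the 2 genes at 0 in MEP set to their bounds. Cebpa, whose product starts the granulocyte program, stood at 58.6 and 77.2 CPM in GMP and 0.0541 and 0.163 CPM in MEP (log2 fold change -9.24, SE 0.275, edgeR adjusted p = 5.23e-11), or -10.19 without MEP replicate 2. Spi1, the gene of PU.1, stood at 232 and 219 CPM in GMP and 1.03 and 0.762 CPM in MEP, and was 252 times higher in GMP (edgeR adjusted p = 4.03e-17). Irf8, a factor of monocytes and dendritic cells, stood at 561 and 424 CPM in GMP and 0.946 and 0.381 CPM in MEP. For these 3 factors both MEP libraries lay far below both GMP libraries. Gfi1, a repressor of the neutrophil lineage and the paralog of Gfi1b, was 855 times higher in GMP (1595 without MEP replicate 1). Cebpe, which acts in later granule formation, stood at 47.4 and 56.7 CPM in GMP and had 6 and 0 counts in MEP. Klf4, a monocyte factor, was at 6.30 and 4.95 CPM in GMP and 0 in both MEP libraries, at least 138-fold higher in GMP. Egr1, an early response factor, was the exception at 0.177 and 0.376 CPM in GMP and 1.81 and 2.34 CPM in MEP (log2 fold change 2.90, SE 0.473, or 3.53 without GMP replicate 2).

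Most cytokine receptors were higher in GMP, with 14 of 17 called there against 27.6% of all tested genes. Only 2 were called in MEP, under the background of 17.3%. Epor, the erythropoietin receptor, stood at 0.324 and 0.564 CPM in GMP and 180.05 and 188 CPM in MEP, 415 times higher in MEP (log2 fold change 8.70, SE 0.131, edgeR adjusted p = 1.02e-16). Il1rl1, the IL-33 receptor, was the other gene called higher in MEP, at 2.44 and 5.33 CPM in GMP and 77.2 and 95.6 CPM in MEP, and its adjusted p was 0.00204 with all libraries and 0.0502 without MEP replicate 1. Csf3r, the G-CSF receptor, stood at 223 and 209 CPM in GMP and 0.378 and 0.490 CPM in MEP (log2 fold change -8.95, SE 0.118, edgeR adjusted p = 2.48e-17). Csf1r, the M-CSF receptor, was 17.4 times higher in GMP, at 250.4 and 212 CPM in GMP against 12.9 and 13.6 CPM in MEP, and Csf2ra, the GM-CSF receptor alpha chain, 17.9 times. The shared beta chain gene Csf2rb was 795 times higher in GMP, with the reservation that its close copy Csf2rb2 can share reads with it. Il6ra, the IL-6 receptor alpha chain, stood at 61.9 and 47.6 CPM in GMP and had 6 and 0 counts in MEP, and Il6st, the signalling chain, was 185 times higher in GMP (341 without MEP replicate 2). The interferon gamma receptor gene Ifngr1 differed less, at 551 and 543 CPM in GMP and 285 and 327 CPM in MEP. Flt3, a receptor of early lymphoid and myeloid progenitors, was 19.6 times higher in GMP but highest in CMP, at 172 and 195 CPM.

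Red cell surface and membrane skeleton genes were higher in MEP without exception. All 19 were tested and all 19 were called higher in MEP, against 17.3% of all tested genes, with a median log2 fold change of 9.06, and 17 were over 8-fold higher. Car2, carbonic anhydrase 2, had the largest gain in CPM of all genes, from 28.1 and 36.3 CPM in GMP to 5780 and 5963 CPM in MEP, a log2 fold change of 7.51 (SE 0.142, edgeR adjusted p = 7.48e-07). Car1 followed with a log2 fold change of 10.05 (SE 0.0784, edgeR adjusted p = 1.64e-18). Both carbonic anhydrase genes had both MEP libraries far above both GMP libraries.

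Several skeleton genes had few or no counts in GMP. Ank1, which ties the spectrin net to the membrane, had 2 and 0 counts in GMP and 95.7 and 98.8 CPM in MEP. Epb42, protein 4.2 of the same complex, had no count in GMP and 47.3 and 38.96 CPM in MEP, at least 947-fold higher. Add2, beta adducin, had 0 and 20 counts in GMP and 292 and 285 CPM in MEP. Sptb, beta spectrin, was 443 times higher in MEP, and Epb41, protein 4.1, which many cells use, 2.27 times. Of the blood group carriers, Rhag, the Rh-associated glycoprotein, stood at 0.177 and 0.251 CPM in GMP and 406 and 391 CPM in MEP, Rhd was 745 times higher in MEP (1339 without GMP replicate 2), Kel, the Kell protein, 913 times, and Ermap, the Scianna antigen, 1004 times. In each of these genes the lowest MEP library lay above the highest GMP library. The water channel gene Aqp1, at 0.883 and 3.38 CPM in GMP and 1103 and 1136 CPM in MEP, had a log2 fold change of 9.06, which was 8.36 without GMP replicate 1 and 10.31 without GMP replicate 2. Its call was lost without either MEP library, at adjusted p of 0.0510 and 0.0521 against 0.0027 with all libraries in edgeR. Slc4a1, the anion exchanger band 3 of mature red cells, was still low in MEP, at 2.32 and 0.816 CPM, with 0 counts in GMP.

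Bases upstream of the start of erythroid genes are shown because Gata1 itself differed. Starts and sequences are RefSeq's on GRCm38.p6, which has the coordinates of mm10. GATA factors bind AGATAA, which was searched on both strands in the 250 bases before the start, where 9.99% of all promoters in the table held it. The table held a promoter for 266 of the 345 genes listed or named and for 10538 of the 17147 tested genes. With the other genes missing, motif shares are not compared between called sets here. The share of all promoters counts promoters, also of genes not tested. List counts are of genes with a match in any of their promoters. Of the 12 red cell surface genes with a promoter there, 5 held AGATAA. Of the same genes, 2 held the KLF1 motif CCACNCCC, which 15.9% of all promoters held. These counts cover too few of the 19 to give a share. AGATAA stood before 2 of 15 globin and haem synthesis genes, 1 of 9 red cell enzymes and 4 of 14 cytokine receptors. On lists leaning to GMP, it stood before 2 of 3 NADPH oxidase genes and 3 of 11 later granule genes. It stood before 0 of 10 azurophil granule genes. Capitals mark AGATAA or its reverse complement in these windows of 30 bases. The receptor gene Epor, the Kell gene Kel, the Rh gene Rhd, the protein 4.2 gene Epb42, the pyruvate kinase gene Pklr and the haem synthesis gene Alas2 are shown at chr9:21963613-21963642 on the minus strand, chr6:41704364-41704393 on the minus strand, chr4:134864481-134864510 on the plus strand, chr2:121037086-121037115 on the minus strand, chr3:89136095-89136124 on the plus strand and chrX:150547319-150547348 on the plus strand.
Epor: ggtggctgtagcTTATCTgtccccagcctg
Kel: cctgagaaactaAGATAAaagaggaggtga
Rhd: cccggcagcctgAGATAAgacctttggcgg
Epb42: gtctctatttccTTATCTcgttcaaacaga
Pklr: tctggctcctgcAGATAAgaccagcagtta
Alas2: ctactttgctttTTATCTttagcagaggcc
Counted from the RefSeq start, the match began at position -54 in Epor, -56 in Kel, -43 in Rhd, -35 in Pklr, -226 in Epb42 and -86 in Alas2. A match describes these letters only and does not show that a factor binds there.

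Haem synthesis genes were higher in MEP by smaller folds than the globin transcripts, which had few counts in GMP. On the list of globins and haem synthesis, 15 of 17 tested genes were called higher in MEP and none in GMP, with a median log2 fold change of 2.59. Cpox, coproporphyrinogen oxidase, stood at 48.8 and 50.3 CPM in GMP and 718 and 677 CPM in MEP, 14.1 times higher in MEP. The other general steps of the pathway lay between 2.13 times for Ppox, protoporphyrinogen oxidase, and 7.77 times for Alad, which makes porphobilinogen, with Fech, which inserts the iron, at 6.02 and Urod at 4.36 times. Slc25a38, the mitochondrial glycine carrier, was 7.91 times higher in MEP. Slc25a37, the mitochondrial iron importer mitoferrin 1, was not called, at 20.8 and 23.8 CPM in GMP and 20.5 and 18.8 CPM in MEP. Alas2, the erythroid enzyme of the first and rate-limiting step, was low in both, at 0.530 and 0.407 CPM in GMP and 3.62 and 2.53 CPM in MEP (log2 fold change 2.70, SE 0.382).

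Adult globin genes were detected in MEP. Hba-a1 had 65.6 and 60.4 CPM in MEP against 1 and 2 counts in GMP, and Hbb-bt had 24.2 and 18.1 CPM against 2 and 2 counts. Hba-a1 and Hba-a2, and Hbb-bs and Hbb-bt, are near-identical pairs, so the split of reads within a pair is uncertain. The embryonic genes Hbb-bh1 and Hbb-y had 0 counts in all 6 progenitor libraries. Ahsp, the alpha globin chaperone, was not analysed here.

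Iron handling genes were called higher in MEP for 7 of 10, with a median log2 fold change of 1.72. Tfrc, the transferrin receptor through which erythroid cells take up iron, stood at 204 and 219 CPM in GMP and 770.5 and 734 CPM in MEP (log2 fold change 1.83, SE 0.0505, edgeR adjusted p = 9.40e-14). Tfr2, a partner of the erythropoietin receptor, was 10.4 times higher in MEP, Slc11a2, the endosomal iron transporter, 5.69 times, and Steap3, the ferrireductase beside it, 6.92 times. Fth1, ferritin heavy chain, was 3.06 times higher in MEP, whereas Ftl1, ferritin light chain, was not called at a log2 fold change of 0.13. Slc40a1, the exporter ferroportin, was 7.10 times higher in MEP. Hmox1, which breaks down haem, was the only one called in GMP, at 2.47 and 5.17 CPM there and 0.216 and 0 CPM in MEP.

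The 2 pyruvate kinase genes lay on opposite sides. Pkm, which encodes the common isoenzymes, stood at 1659 and 1641 CPM in GMP and 2.95 and 2.15 CPM in MEP, 648 times higher in GMP (log2 fold change -9.34, SE 0.0856, edgeR adjusted p = 5.81e-18). Pklr, which encodes the liver and red cell isoenzymes, stood at 0.412 and 0.125 CPM in GMP and 175 and 179 CPM in MEP, 657 times higher in MEP (log2 fold change 9.32, SE 0.158, edgeR adjusted p = 1.38e-15), or 1362 times without GMP replicate 1. Neither gene overlapped between the cell types. Levels in CMP were 877 and 829.7 CPM of Pkm and 0.649 and 0.533 CPM of Pklr. Of 9 red cell enzymes, 5 were called higher in MEP and 1 in GMP, beside 17.3% and 27.6% of all tested genes. Blvrb, biliverdin reductase B, was 94.8 times higher in MEP, Tspo2, an erythroid membrane protein, 849 times (514 and 2112 without GMP replicate 1 and 2), and Prdx2, the main red cell peroxiredoxin, 5.28 times. Gpx1, glutathione peroxidase 1, was called in GMP at 1.56 times and fell under the fold threshold with library size scaling, at a log2 fold change of -0.53.

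Megakaryocyte and platelet genes were called in both directions. Of 17 genes 11 were tested, 4 were called higher in MEP, 6 in GMP and 1 was not called, beside 17.3% and 27.6% of all tested genes. Called higher in MEP were Gp1ba (0.118 and 0.689 CPM in GMP, 6.49 and 8.87 CPM in MEP), Gp5 (0.118 and 2.07 CPM in GMP and 30.7 and 44.5 CPM in MEP) and Gp9 (1.06 and 1.88 CPM in GMP and 4.95 and 4.87 CPM in MEP), which encode subunits of the platelet receptor GPIb-IX-V, and Vwf (1.41 and 4.26 CPM in GMP and 15.9 and 15.2 CPM in MEP), its ligand. Itga2b, the integrin CD41, stood at 34.3 and 59.7 CPM in GMP and 2.43 and 2.61 CPM in MEP, and Itgb3, its partner, at 14.6 and 19.99 CPM in GMP and 0.270 and 0.218 CPM in MEP. Platelet factor 4, encoded by Pf4, stood at 1.65 and 6.61 CPM in GMP and 0.811 and 0.653 CPM in MEP. Both CMP libraries exceeded all MEP and GMP libraries for 16 of the 17 genes of the list. In CMP, Itga2b reached 331 and 353 CPM and Pf4 122 and 114 CPM. The summed level of the list was 133 and 195 CPM in GMP, 70.0 and 87.0 CPM in MEP, and 1024 and 1063 CPM in CMP. Without either MEP library the calls of Pf4, Itga2b, Gp5 and Vwf were lost, at adjusted p from 0.0850 to 0.362, and Pf4 was also lost without GMP replicate 2 (0.0696) and with CMP in the fit (0.111). Gp5 was lost without a count filter (0.0918).

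**Figure D3:**
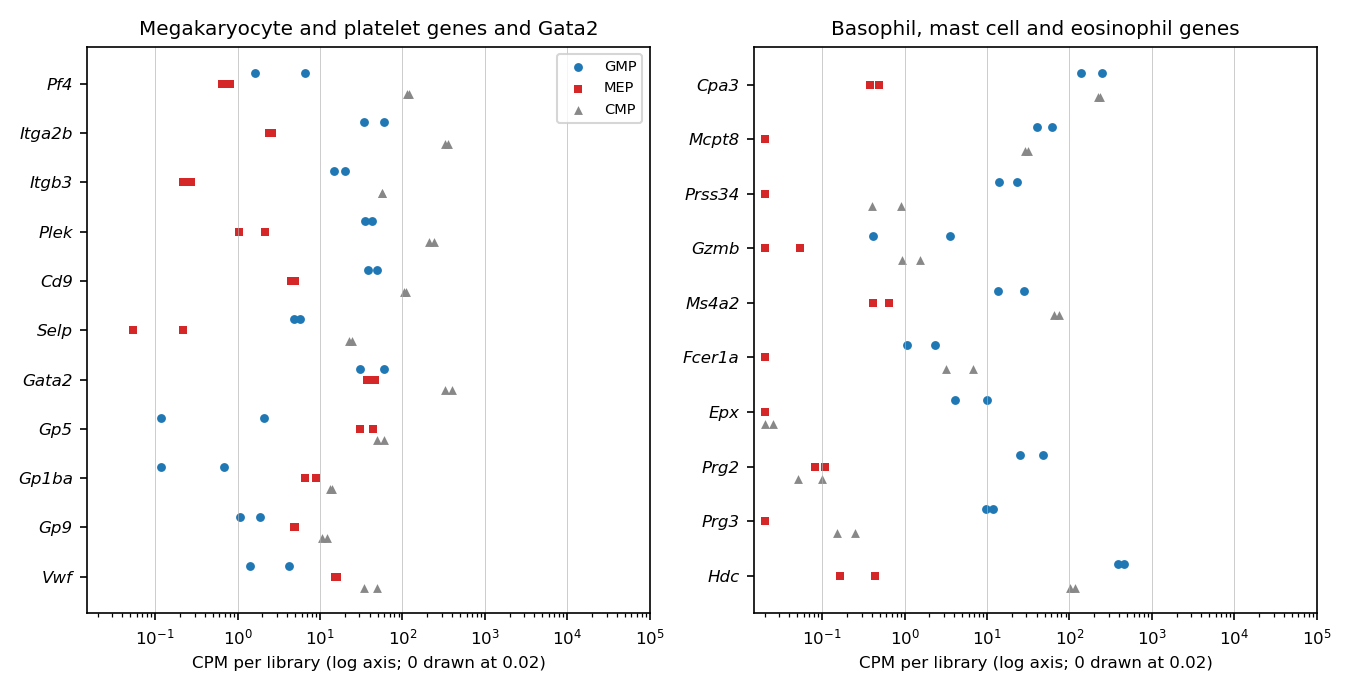
CPM per library on a log axis of megakaryocyte and platelet genes with Gata2 (left) and of basophil, mast cell and eosinophil genes (right), for GMP (circles), MEP (squares) and CMP (triangles). On the left CMP lies highest for every gene shown and MEP lies lowest for Pf4, Itga2b, Itgb3, Plek, Cd9 and Selp. On the right every MEP library lies below 1 CPM.

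Azurophil granule genes were the counterpart in GMP. All 12 were tested and called higher in GMP, against 27.6% of all tested genes, with a median log2 fold change of -7.31. Mpo was 2493 times higher in GMP (log2 fold change -11.28, SE 0.652, edgeR adjusted p = 0.00416) and Elane 1730 times (log2 fold change -10.75, SE 0.821, edgeR adjusted p = 0.00735). Both folds turned on MEP replicate 1, where the genes were higher than in replicate 2: without it they were 4117 for Mpo and 6669 for Elane, and Elane was at 988 without MEP replicate 2. Ctsg was 2358 times higher in GMP (log2 fold change -11.20, SE 0.106, edgeR adjusted p = 2.60e-16), and Prtn3, proteinase 3, stood at 2537 and 2200 CPM in GMP and 3.08 and 1.61 CPM in MEP. All 4 stood far apart between the cell types, and CMP lay between them, at 14981 and 12527 CPM of Mpo and 935 and 599 CPM of Elane. Cst7, cystatin F, and Serpinb1a, an inhibitor of the granule proteases, were 236 and 345 times higher in GMP. Ctsc, which activates the granule proteases, and Srgn, the proteoglycan serglycin that packs them, were detected in MEP too and were 14.2 and 6.43 times higher in GMP. Gusb, a lysosomal enzyme gene, was 2.54 times higher in GMP. A gene model named Gm lies within Mpo on the opposite strand and was 1 of the genes with the largest CPM differences. It is counted and not described, and as the strand setting of the counting is not given, its reads and those of Mpo cannot be told apart. The summed level of the list was 62003 and 60778 CPM in GMP and 413 and 392 CPM in MEP.

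The PU.1 motif GAGGAAGT is shown for 3 azurophil granule genes that hold it. Spi1 and the granule genes were both higher in GMP, and a link between them was not tested. The motif was searched on both strands and occurred in the 250 bases before the start in 2.44% of all promoters. It stood in 4 of the 10 azurophil granule genes with a promoter in the table, Ctsg not among the 4. The C/EBP motif TTGCNNCAA, in 1.74% of all promoters, stood in 0 of the 10. As above, a match describes letters only. Capitals mark GAGGAAGT in the windows of Elane (chr10:79886216-79886245 on the plus strand), Prtn3 (chr10:79879561-79879590 on the plus strand) and Mpo (chr11:87793549-87793578 on the plus strand).
Elane: cgtgtcccaggGAGGAAGTagggctgtggc
Prtn3: caaactggaagGAGGAAGTgggacccacag
Mpo: gtggagagagaGAGGAAGTtgcctttgtcc
Counted from the RefSeq start, which lies inside the GENCODE gene for Elane, Prtn3 and Mpo, the match began at position -85 in Elane, -95 in Prtn3 and -224 in Mpo, each in the direction of the gene.

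Genes of later granules were low in both cell types. On that list 5 of 11 tested genes were called higher in GMP, beside 27.6% of all tested genes, and 6 were not called. Without GMP replicate 2, 1 gene of the list was called in MEP. Lcn2, lipocalin 2, stood at 9.48 and 7.96 CPM in GMP and 0.703 and 1.09 CPM in MEP, and the alarmin gene S100a8 at 14.4 and 17.3 CPM in GMP and 5.54 and 3.16 CPM in MEP. Ngp, a neutrophil granule protein, was not called, at 3.89 and 7.86 CPM in GMP and 5.06 and 0.544 CPM in MEP, where replicate 1 was the higher, and without that library it was called in GMP at a log2 fold change of -3.42. DESeq2 called 3 genes of the list. The list summed to 46.0 and 58.8 CPM in GMP and to 21.1 and 10.4 CPM in MEP.

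The NADPH oxidase, which makes superoxide in phagocytes, was higher in GMP for all 6 genes (median log2 fold change -6.47). Ncf1, the p47phox subunit, stood at 239 and 221 CPM in GMP and 0.487 and 0.599 CPM in MEP (log2 fold change -8.72, SE 0.114, edgeR adjusted p = 2.48e-17). Cybb, the catalytic gp91phox subunit, was 123 times higher in GMP (222 without MEP replicate 1), and Ncf4, p40phox, 667 times. Cyba, p22phox, and Rac2, the GTPase that activates the complex, were present in MEP, Cyba at 35.6 and 34.8 CPM and Rac2 at 71.3 and 75.4 CPM, and were 5.87 and 7.64 times higher in GMP.

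Monocyte and dendritic cell genes were called higher in GMP for all 10 tested of 11 (median log2 fold change -6.46). F13a1, coagulation factor XIII A, which monocyte precursors make, stood at 1428 and 1090 CPM in GMP and 0.324 and 0.599 CPM in MEP. Ms4a6c, a membrane protein of monocytes, stood at 195 and 164 CPM in GMP and 0.0541 and 0.0544 CPM in MEP and was 3305 times higher in GMP. Ccr2, the receptor that leads monocytes out of the marrow, was 248 times higher in GMP. Ly6c2, the monocyte antigen Ly6C, was 1869 times higher in GMP (3049 without MEP replicate 1), a value that reads shared with its neighbouring copies make uncertain. Cd74, the invariant chain, stood at 3.97 and 10.8 CPM in GMP and 1.54 and 1.44 CPM in MEP, and its call was lost without either MEP library, at adjusted p of 0.204 and 0.210. Of the list's genes, Siglech, which marks plasmacytoid cells, was at or under 0.0627 CPM in each of the 4 libraries.

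Sensors of microbes went with them. Of 10 tested genes 9 were called higher in GMP and 1 was not called, with a median log2 fold change of -8.82, or -6.09 with genes at 0 in MEP set to their bounds. Tlr4, the endotoxin receptor, stood at 22.1 and 21.4 CPM in GMP and 0 counts in MEP, at least 535-fold higher in GMP. Its coreceptor gene Cd14 was likewise at 0 in MEP and at 6.48 and 6.89 CPM in GMP. Tlr2, the receptor of bacterial lipoproteins, had 20.9 and 23.7 CPM in GMP and 2 and 0 counts in MEP. Myd88, the adaptor that most of these receptors share, was not called, at 62.6 and 69.997 CPM in GMP and 58.04 and 60.5 CPM in MEP. Ly96, the endotoxin coreceptor MD-2, was called at a log2 fold change of -0.76 (edgeR adjusted p = 0.0477), and lost the call in DESeq2 (0.137), with library size scaling, in the non-robust fit, with the replicate block, and without GMP replicate 1, GMP replicate 2 or MEP replicate 1 (0.0592 to 0.319 over these).

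Basophil, mast cell and eosinophil genes were all 10 called higher in GMP, with a median log2 fold change of -9.66, or -8.29 with the 5 genes at 0 in MEP set to their bounds. Hdc, which makes histamine, stood at 386 and 457 CPM in GMP and 0.162 and 0.435 CPM in MEP. Cpa3, the mast cell carboxypeptidase, stood at 139 and 248 CPM in GMP and 0.378 and 0.490 CPM in MEP. Mcpt8, the basophil protease, stood at 39.9 and 60.8 CPM in GMP and 0 in MEP, at least 1238-fold higher. Prg2, the eosinophil major basic protein, stood at 25.05 and 47.2 CPM in GMP and 0.0811 and 0.109 CPM in MEP, and Epx, eosinophil peroxidase, at 4.09 and 10.1 CPM in GMP and 0 in MEP. In GMP replicate 2 all 10 genes were higher than in replicate 1, against 49.4% of all tested genes, and the list summed to 633 and 892 CPM. In MEP the sums were 1.32 and 1.44 CPM, with Mcpt8, Prss34, Fcer1a, Epx and Prg3 at 0. CMP carried Cpa3 at 223 and 235 CPM and Hdc at 118 and 101 CPM, and the eosinophil gene Prg2 at 0.0999 and 0.0507 CPM only. Cpa3, Gzmb, Ms4a2 and Prg2 lost their calls without either MEP library, at adjusted p from 0.0729 to 0.359, and 6 of the 10 then remained. Gzmb was also lost without GMP replicate 2 (0.0899).

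Gene lists of the erythroid factors and of the megakaryocyte genes showed the same difference within the GMP pair, with 12 of 14 and 10 of 11 tested genes higher in replicate 2. The part of basophil, mast cell or eosinophil precursors, or of other cells in GMP replicate 2, in the comparison was not tested. Of the 9 genes of the basophil, mast cell and eosinophil list with a promoter in the table, 4 held AGATAA, the GATA motif that capitals mark in the windows of Cpa3 (chr3:20242210-20242239 on the minus strand) and Prss34 (chr17:25298351-25298380 on the plus strand), shown for comparison with the erythroid genes.
Cpa3: agctgttcgtcgAGATAAaagctgaggtat
Prss34: cctgtggaagaaAGATAAatgggaccctgg
The match began at position -46 in Cpa3 and -31 in Prss34, so these letters stood before genes of either direction.

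Genes of stem and multipotent cells were mostly lower in MEP. On that list 9 of 12 tested genes were called higher in GMP, against 27.6% of all tested genes, and 2 in MEP, near the background of 17.3%, with a median log2 fold change of -3.76, and both CMP libraries were the highest for 12 of its 15 genes. Meis1, a homeobox factor of stem cells, stood at 21.3 and 29.05 CPM in GMP, 1.97 and 2.20 CPM in MEP and 144 and 152 CPM in CMP. Hlf, a factor that marks stem cells, stood at 8.74 and 8.15 CPM in GMP and 0.541 and 0.326 CPM in MEP. Mllt3, a reader of acylated histones that is also known for a role in erythroid and megakaryocyte cells, went the other way, at 4.44 and 4.67 CPM in GMP and 79.7 and 90.3 CPM in MEP (log2 fold change 4.22, SE 0.111, edgeR adjusted p = 5.47e-14). Slamf1 was the other gene called in MEP, and it, Cd34 and Ly6a also stand on the list of gate genes, where a difference is a check only.

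Markers of lymphoid and stromal cells were low. The 14 lymphoid genes summed to 43.6 and 44.6 CPM in GMP and to 6.54 and 5.31 CPM in MEP, with 5 tested, 1 called in MEP and 2 in GMP. Ebf1, a B cell factor, was the member called in MEP, at 0 and 0 CPM in GMP and 0.487 and 0.272 CPM in MEP, and no member was called there without MEP replicate 1. Cd79b, a chain of the B cell receptor, made up most of the sum in GMP, at 37.5 and 38.8 CPM, and Pax5 and Rag1 were at 0 in all 4 libraries. The 8 endothelial and stromal genes summed to 115 and 113 CPM in GMP and 2.00 and 2.50 CPM in MEP, nearly all of it from Pecam1, an adhesion molecule that leukocytes also carry, at 114 and 112 CPM in GMP. Cdh5 and Col3a1 were at 0 in all 4 libraries.

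Adhesion and homing genes were called higher in GMP for 9 of 13, against 27.6% of all tested genes, and higher in MEP for 2, near the background of 17.3%. Itgal, the LFA-1 alpha chain, stood at 123 and 134 CPM in GMP and 1.298 and 1.20 CPM in MEP, 103 times higher in GMP, and its partner Itgb2 3.19 times. Itga4 and Itga5, the alpha chains of the fibronectin receptors VLA-4 and VLA-5, were 2.07 and 1.65 times higher in MEP. Cxcr4, the receptor that keeps progenitors in the marrow, was 4.49 times higher in GMP. Ptprc, the pan-leukocyte antigen CD45, was 4.81 times higher in GMP, at 205 and 204 CPM against 39.04 and 46.1 CPM.

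Replication and mitosis genes were expressed in both cell types and differed by smaller folds. Of 24 genes 8 were called higher in MEP, 1 in GMP and 15 not called, with a median log2 fold change of 0.38, beside 17.3% of all tested genes called higher in MEP and 27.6% in GMP. Ccne1, cyclin E1, stood out at 27.3 and 29.6 CPM in GMP and 322 and 290.2 CPM in MEP, 10.7 times higher in MEP (log2 fold change 3.43, SE 0.0702, edgeR adjusted p = 4.75e-15). E2f4, an E2F factor known to be needed in red cell formation, was 3.22 times higher in MEP, at 158 and 152 CPM in GMP against 509.7 and 489 CPM in MEP, and E2f2 2.67 times. Mcm2 and Mcm4 of the replicative helicase were 1.72 and 1.85 times higher in MEP. The proliferation antigen gene Mki67 was not called, at 264 and 258 CPM in GMP and 342 and 338 CPM in MEP. Aurkb, a mitotic kinase, was the member called in GMP, 1.92 times higher there.

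Of the cyclins and kinases that open the cell cycle, Ccnd2, cyclin D2, stood at 263 and 329.8 CPM in GMP and 111 and 91.7 CPM in MEP, 2.93 times higher in GMP, and Cdk6 was 1.84 times higher in GMP. Ccnd3, cyclin D3, which is known for its role in red cell number and size, was not called at 197 and 202 CPM in GMP and 303 and 248 CPM in MEP, and passed into MEP without MEP replicate 2, at a log2 fold change of 0.61. Among the inhibitors, Cdkn2d, p19, was 5.89 and Cdkn1a, p21, 5.39 times higher in GMP, while the retinoblastoma gene Rb1 was 1.98 times higher in MEP. The list as a whole had 4 of 12 tested genes called in GMP and 1 in MEP, near the 27.6% of all tested genes in GMP and under the 17.3% in MEP.

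Myb, the factor of immature progenitors, stood at 789 and 816 CPM in GMP and 315 and 353 CPM in MEP, 2.40 times higher in GMP (log2 fold change -1.27, SE 0.0540). On its list 5 of 12 tested genes were called in MEP, beside 17.3% of all tested genes, all of them genes of ribosome making with folds of 1.53 to 1.73: Npm1, Nop58, Polr1b, Rrn3 and Ubtf. Library size scaling raised that count to 8, and it was 3 without GMP replicate 1. The count called in GMP, 1 with Myb alone, was 2 without a filter and without GMP replicate 1 or MEP replicate 1. Polr1b and Ubtf fell under the fold threshold without GMP replicate 1, at log2 fold changes of 0.58 and 0.55. Ubtf also did so without MEP replicate 1, at 0.57. Myc was not called, with 412 and 722 CPM in GMP around 525 and 529 CPM in MEP.

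Survival genes were called in both directions, with 2 of 12 tested called in MEP and 5 in GMP, or 3 in GMP without GMP replicate 2, beside 17.3% of all tested genes in MEP and 27.6% in GMP, so that the MEP share was near the background. Bcl2, the founding survival gene, stood at 132 and 142 CPM in GMP and 4.06 and 3.54 CPM in MEP, 36.04 times higher in GMP (log2 fold change -5.17, SE 0.0992, edgeR adjusted p = 1.49e-15). Bcl2l11, the death inducer BIM, stood at 13.04 and 14.8 CPM in GMP and 53.7 and 51.4 CPM in MEP, 3.78 times higher in MEP (log2 fold change 1.92, SE 0.104, edgeR adjusted p = 3.00e-10). The other member called in MEP, which is not reported here by name, had the largest rise of the list, a log2 fold change of 3.41. Bcl2l1, which encodes Bcl-xL, the survival protein of late erythroblasts, was 1.72 times higher in GMP, and fell under the fold threshold without GMP replicate 2, at a log2 fold change of -0.56. Mcl1, which many progenitors need, was not called at a log2 fold change of 0.29.

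Genes of the early response, which handling of cells can induce, were called higher in GMP for 6 of 10 tested, against 27.6% of all tested genes, and in MEP for 2, near the background of 17.3%. Fos stood at 6.95 and 9.78 CPM in GMP and 0.0541 and 0.109 CPM in MEP, Ier2 at 72.3 and 78.05 CPM in GMP and 33.5 and 33.1 CPM in MEP, and Jun, called in MEP, at 4.30 and 5.08 CPM in GMP and 8.27 and 7.78 CPM in MEP. All 10 tested genes of this list were higher in GMP replicate 2 than in replicate 1, and the list summed to 137 and 188 CPM in GMP and 90.7 and 90.4 CPM in MEP. Zfp36, which destabilises such transcripts, stood at 10.3 and 27.01 CPM in GMP and 1.41 and 1.90 CPM in MEP, and lost its call without either MEP library (adjusted p 0.285 and 0.254) and with CMP in the fit (0.0514). The part of handling in the comparison was not tested.

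Btaf1, the gene at the centre of the study, which encodes an ATPase that removes TBP from DNA, stood at 161 and 167 CPM in GMP, 376 and 395 CPM in MEP and 162 and 174 CPM in CMP. It was 2.35 times higher in MEP than in GMP (log2 fold change 1.23, SE 0.0504, edgeR adjusted p = 1.04e-11), with both MEP libraries above both GMP libraries. Counts per gene sum over transcripts, so the shorter variant and the full transcript cannot be told apart here. The paper itself reports that, among CMP, GMP and MEP, the shorter variant was highest in MEP. Tbp itself was not called, at 107 and 112 CPM in GMP and 129 and 124 CPM in MEP, and neither were Tbpl1, Dr1 and Ide, with log2 fold changes of 0.12, 0.04 and -0.47.

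The sex-linked genes gave a check of the male mice named in the methods. Of 5 genes 4 lie on the Y chromosome, among them Ddx3y at 84.2 and 95.5 CPM in GMP and 98.9 and 115 CPM in MEP, and none of the 4 was called. Xist, the RNA that coats the inactive X chromosome of females, was low in all 4 libraries, at 0.294 and 0.219 CPM in GMP and 1.68 and 2.31 CPM in MEP, and was called higher in MEP (log2 fold change 2.94, SE 0.464, edgeR adjusted p = 4.78e-05).

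**Figure D4:**
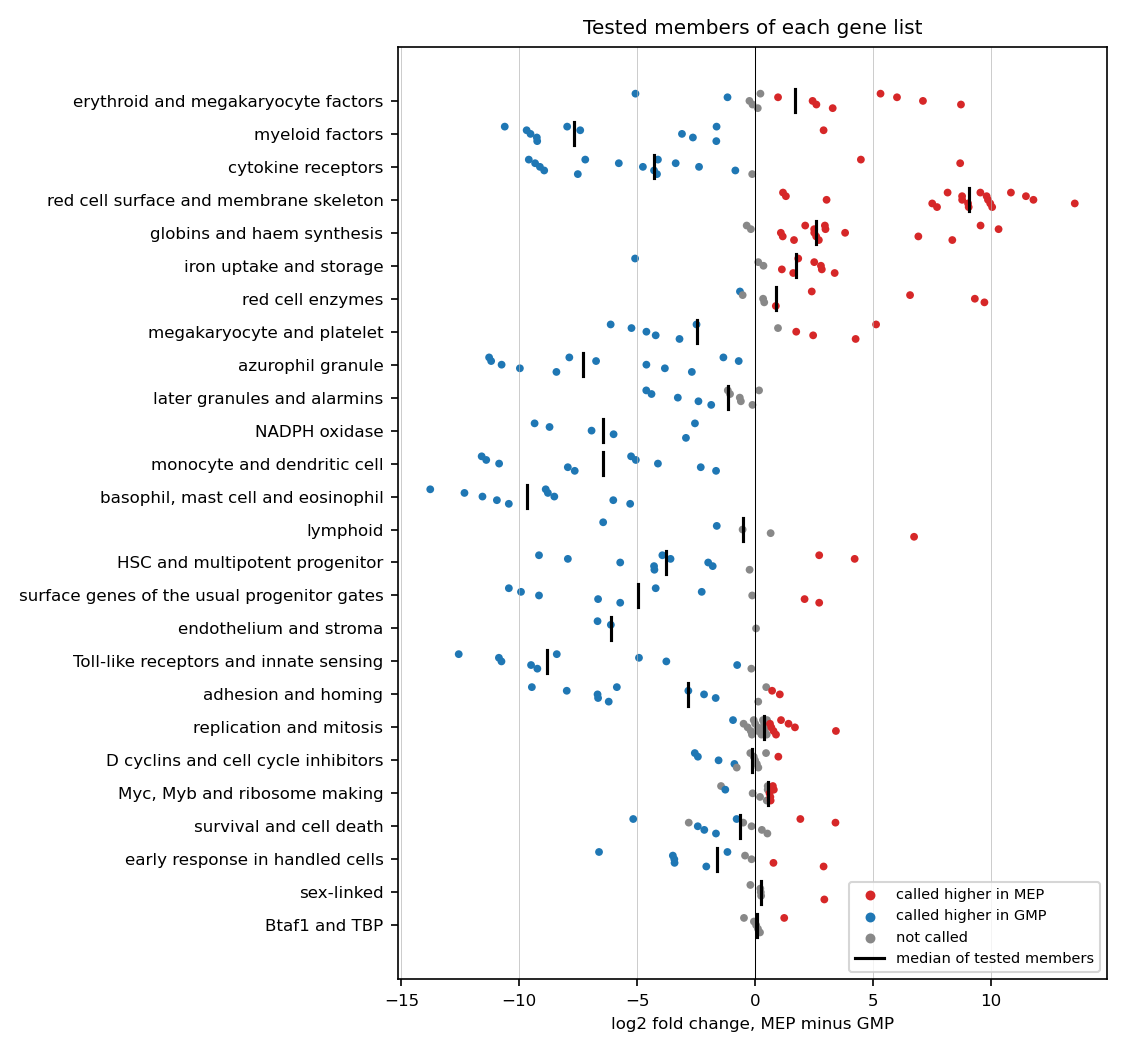
Log2 fold change (MEP minus GMP) of each tested member of the 26 gene lists, coloured by call, with the median of each list as a black bar. Red cell surface genes lie mostly far right. Azurophil granule, oxidase, monocyte, basophil and Toll-like receptor genes lie mostly far left. The later granule list has a median of -1.16. Most replication genes lie near 0, with the largest at 3.43.

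Outside the lists, genes were taken by rank of fold and of CPM difference. The genes ranked highest in MEP by fitted log2 fold change had no or almost no counts in GMP, where the size of the fitted value, and so the rank, is not a measured fold. Sh3tc2, an endosomal adaptor, had 54.8 and 54.3 CPM in MEP and 0 counts in GMP, at least 1197-fold higher in MEP. Acsl6, an acyl-CoA synthetase of red cell precursors, Btnl10, a butyrophilin-like gene, Lmcd1, a LIM protein that represses GATA6, Agtr1a, an angiotensin II receptor, Pkhd1l1 and Cecr2, a chromatin remodeler, were also at 0 in GMP, with lower bounds of 329 to 751-fold. Tmem56 had 202 and 199.998 CPM in MEP and 0 and 2 counts in GMP, and Slc25a21, a mitochondrial carrier of oxodicarboxylates, 125 and 147 CPM and 0 and 2 counts.

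By CPM difference, Car2, Car1, Fth1, Aqp1, Ermap and Prdx2 of the lists led in MEP, with 4 other genes. C1qtnf12, a secreted C1q/TNF family member, stood at 18.4 and 21.6 CPM in GMP and 959 and 1006 CPM in MEP, 49.1 times higher. Ctse, the aspartic protease cathepsin E, stood at 9.42 and 10.6 CPM in GMP and 899 and 1025 CPM in MEP, 96.01 times higher. Mthfd1, a folate enzyme, and Hdgf, a chromatin-bound growth factor, were 4.45 and 2.61 times higher in MEP. In CMP, Ctse stood at 22.7 and 26.1 CPM and Mthfd1 at 230.1 and 214 CPM, both far under MEP.

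The genes ranked highest in GMP by fitted log2 fold change were at 0 in MEP, with the same limit on the rank. BE692007, annotated as a processed transcript, with 90.5 and 77.6 CPM in GMP, was at least 2066-fold higher, and Chst13, a chondroitin sulfotransferase with 55.8 and 54.9 CPM, at least 1361-fold. Dock1, an activator of Rac, Kcnip3, a calcium sensor, Aatk, a kinase named for apoptosis, Mefv, which encodes pyrin, Cds1, a phospholipid enzyme, St14, the membrane protease matriptase, and Jdp2, an AP-1 repressor, had 0 counts in MEP and lower bounds of 657 to 1139-fold. Plac8, known from myeloid cells, was among the largest in CPM difference at 1909 and 1835 CPM in GMP and 10.8 and 8.49 CPM in MEP. Calr, the endoplasmic reticulum chaperone calreticulin, was 5.44 times higher in GMP, and Tmsb4x, thymosin beta 4, which binds actin monomers, 86.8 times. H2afy, the histone variant macroH2A1, stood at 2007 and 1860 CPM in GMP, 149.7 and 157 CPM in MEP and 2000 and 2015 CPM in CMP, so GMP and CMP shared a level from which MEP stood apart.

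CMP lay nearer GMP than MEP, with r of 0.969 to 0.977 to the GMP libraries and 0.870 to 0.873 to the MEP libraries across genes. Its mean lay between the 2 cell types for 61.9% of the genes called higher in MEP and 56.3% of those called higher in GMP. It lay at or above GMP for 1996 of the 4726 genes called higher in GMP, and at or above MEP for 189 of the 2963 called higher in MEP. The CMP mean lay at or below both for 940 of the genes called higher in MEP and 67 of those called higher in GMP. These counts describe the same libraries and were not tested.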

How the data were processed

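The deposited table of gene counts was made by the authors, through trimming (cutadapt), alignment to mm10 (STAR) and assignment of reads to GENCODE M22 genes (featureCounts). Strand and multimapping settings are not given in the methods or labels. Counts from 2 MEP and 2 GMP libraries of 33177394 to 35509939 counts were scaled by TMM and tested with edgeR 4.0.16 (glmQLFit and glmQLFTest, robust, filterByExpr) in R 4.3.3, with Benjamini-Hochberg adjustment over all 17147 genes tested. DESeq2 1.42.0, other scalings and filters, a replicate block, a fit with CMP and leaving out each library were alternatives. The procedure was tested on simulated data in which few genes changed, equally in both directions and by the same fold. That test did not check the scaling or the error rate for changes as many and as uneven as those here. Positions are from GENCODE M21 and promoters from RefSeq (GRCm38.p6). Apart from CMP, the study's libraries of other cells and assays were not used. Some members of the lists enter the counts and are not reported here by name.

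The members and the 26 gene lists were chosen with earlier results of these data known. List members could be named whatever their result, those with the largest called changes and those called against their list first. Outside the lists, the 10 largest log2 fold changes and the 10 largest CPM differences per direction were named, among called genes without overlap and with at least 10 CPM in the higher group. The replicate numbers were not taken to pair the libraries.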

Additional observations from a re-analysis of the deposited data

How the results depend on the processing

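The counts of genes higher in MEP and in GMP stayed within 1.5 times of 2963 and 4726 under each other test, scaling, filter and fit run. DESeq2 called 2705 and 4395, and scaling by library size alone, which moved the median log2 fold change of all genes from -0.03 to 0.09, called 3639 and 4352, so that GMP held 54.5% of the calls. Leaving out each library gave 2659 to 2818 genes higher in MEP and 4229 to 4780 higher in GMP. A fold threshold of 2 left 1902 genes higher in MEP and the adjusted p alone gave 4957. No called gene that was still tested changed sign in any of these. Of the 7689 called genes, 602 lost the call in DESeq2, 374 with library size scaling and 276 with the replicate block. A filter of CPM above 1 in both libraries of a group tested only 6676 of the 7689. With the replicate number as a block, 2849 and 4591 genes were called, and the correlation of same-numbered deviations, 0.040 over 2 pairs, did not show that the numbers pair the libraries.

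Results without a call reversed. Gata2 moved from -0.11 to 0.0049 by library size and lay between -0.53 and 0.46 with 1 library left out, and Myc moved to 0.010 by library size and lay between -0.46 and 0.36. The median of the lymphoid list became 1.12 without a filter, 0.077 with CMP in the fit and -1.25 to 1.35 with 1 library left out. The median of the endothelial and stromal list became 0.97 without a filter and lay between -6.38 and 0.28 with 1 library left out. Both lists held few tested genes. Of the counts of list members called, 35 moved by over 1.5 times across these settings and 589 did not. With 2 libraries a cell type, leaving out 1 leaves the spread to be set by the other pair.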
